A study of Ambystoma mexicanum with 12 samples.

Results

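SALL4, TBX4, SOX4 and KDM3A are 4 developmental regulators that the study named among the genes it found higher in its own axolotl blastemas. They were chosen here by identifier (SALL4 AMEX60DD027407, TBX4 AMEX60DD054629, SOX4 AMEX60DD038468 and KDM3A AMEX60DD046114) from 99088 genes counted, of which 65472 had a count in some library. The study also compared its blastemas with published blastemas of another axolotl strain, collected at a later day, and sought genes changed in both. Those published libraries were not used here. Because the naming rested in part on the present libraries, a higher level of the 4 genes in the blastema than in the juvenile limb is not independent evidence. Blastema against aged limb uses the same 5 blastema libraries and carries the same choice. The comparison of aged with juvenile limb leaves the blastemas out but uses the same 5 juvenile limbs. It is therefore not free of that choice either.

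RNA was sequenced from 12 libraries of the Mexican axolotl (Ambystoma mexicanum), a salamander that regrows amputated limbs. There were 5 blastemas collected on day 10 after amputation from juvenile animals of 8 months, 5 juvenile limbs, which were the tissue removed at amputation from juvenile animals of that age, and 2 limbs of aged animals of 8 years. No treatment other than amputation under benzocaine sedation is given for any group, and all animals came from a captive colony founded from Lake Xochimilco. The aged animals formed no blastema, so the aged limbs are unregenerated tissue of 2 other animals, and no aged tissue after amputation was analysed here. Total counts per library lay between 12975883 and 20663627. Levels are given as CPM, a library's count scaled to 1000000 counts after adjusting all 12 libraries together by edgeR's TMM method. No gene lengths were used, so levels are compared between libraries and not between genes.

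A blastema is the mound of proliferating progenitor cells that forms under the wound epidermis of an amputated limb and rebuilds the missing parts. SALL4 is a zinc finger transcription factor of embryonic stem cells and early limb buds in mammals. SOX4 is an HMG-box transcription factor of embryonic progenitors, and TBX4 is a T-box transcription factor of the hindlimb bud in tetrapods. KDM3A is a histone lysine demethylase of the 2-oxoglutarate oxygenase class that, in mammals, removes a repressive methyl mark and is induced by low oxygen. In a RefSeq assembly of the axolotl other than the one used for counting (UKY_AmexF1_1), each symbol belonged to 1 gene. There, SALL4 lay between ZFP64 and ATP9A, and TBX4 lay between TBX2, another T-box gene, and BRIP1. CDKAL1 was beside SOX4 and REEP1 beside KDM3A.

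SALL4 had the largest fold change of the 3 members that edgeR tested. It was expressed at 21.6, 17.7, 6.22, 19.6 and 6.17 CPM in blastema replicates 2, 3, 5, 6 and 8, from 221, 384, 79, 259 and 83 counts. In the juvenile limbs of the same numbers it was at 0.790, 1.06, 0.550, 1.23 and 0.450 CPM, from 7 to 23 counts. The lowest blastema was thus 5.00 times the highest juvenile limb. Replicates 2, 3 and 6 formed the upper part of both groups and replicates 5 and 8 the lower part. Blastemas averaged 14.3 ± 7.49 CPM and juvenile limbs 0.817 ± 0.331 CPM (SD, n = 5 each). The log2 fold change was 4.10 (SE 0.47), with an adjusted p of 0.0002. Here and below, SE is the standard error of the fit, and adjusted p values are those of edgeR's quasi-likelihood F test, corrected over every gene tested by the Benjamini-Hochberg method, unless DESeq2 is named. Counting error is wide in the limbs, where the 7 counts of replicate 8 allow 0.181 to 0.928 CPM by the 95% exact Poisson interval. These intervals cover counting error only.

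SALL4 in the aged limbs was 1.11 CPM in replicate 1 and 2.32 CPM in replicate 2, from 25 and 36 counts. Aged limb replicate 2 was above all 5 juvenile limbs, while replicate 1 was below juvenile limb replicate 6. The log2 fold change of aged over juvenile limb was 1.07 (SE 0.62, adjusted p = 0.763, edgeR), which is within the spread of the libraries. Every blastema was above both aged limbs, the lowest at 2.66 times the higher aged limb. The log2 fold change of blastema over aged limb was 3.10 (SE 0.70), and its adjusted p of 0.0735 in edgeR missed the threshold. DESeq2 on the same 7 libraries called it (adjusted p = 0.000115). Over all alternatives run, that p spanned 1.78e-07 to 0.502. By mean level the order was blastema, aged limb, juvenile limb, and the limbs of both ages were not told apart.

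**Figure D1:**
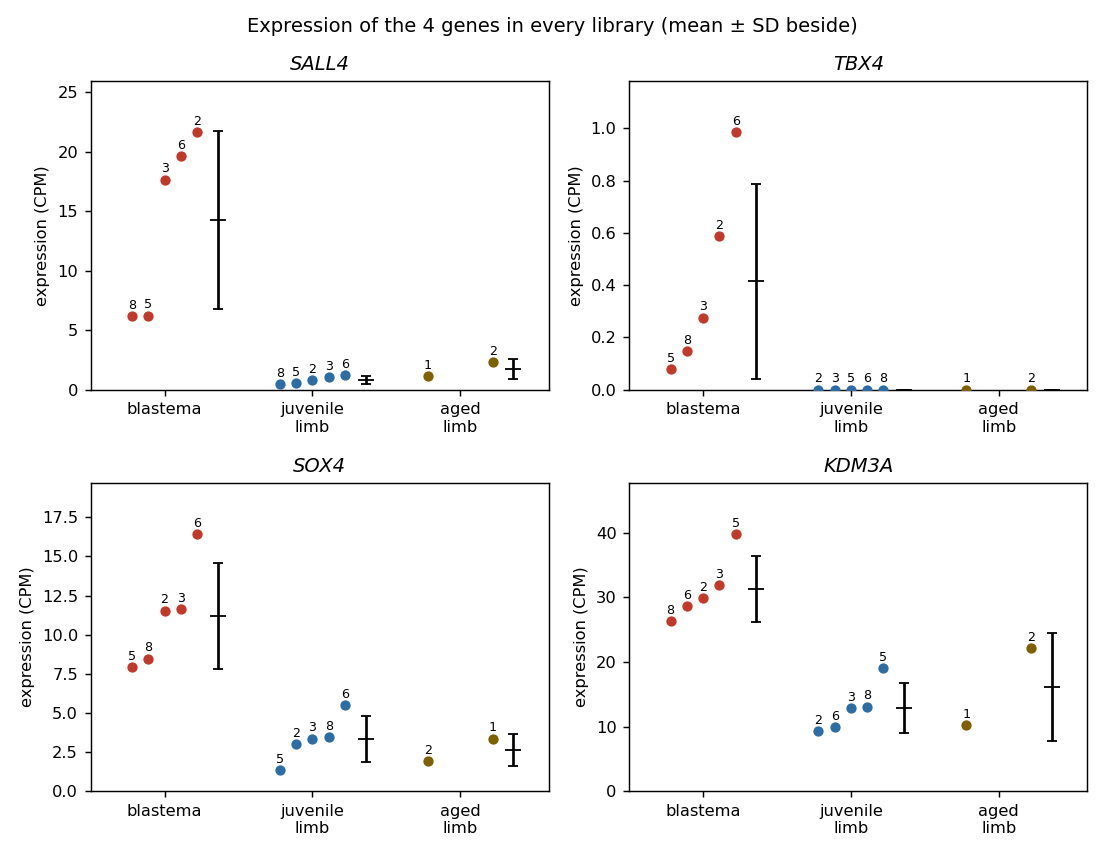
Expression (CPM, linear axes from 0) of SALL4, TBX4, SOX4 and KDM3A in each of the 12 libraries, with points numbered by replicate and the mean ± SD of each group beside them. All 5 plotted blastema values lie above all 5 juvenile limbs and both aged limbs in each panel. Of genes tested by edgeR, 3.32% did so against the juvenile limbs and 9.74% against the aged limbs. TBX4 is at 0 in the 7 limbs and has only 1 to 13 counts per blastema, so its separation is within counting error for some blastemas.

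SOX4 was higher in the blastemas by a smaller factor. It was at 11.5, 11.6, 7.95, 16.4 and 8.47 CPM in blastema replicates 2, 3, 5, 6 and 8. The juvenile limbs of the same numbers had 3.01, 3.37, 1.37, 5.49 and 3.47 CPM. The groups did not overlap, and the lowest blastema was 1.45 times the highest juvenile limb. As for SALL4, blastemas 2, 3 and 6 were above blastemas 5 and 8. Means were 11.2 ± 3.37 CPM and 3.34 ± 1.47 CPM (SD, n = 5 in each group), and the log2 fold change of 1.73 (SE 0.34) had an adjusted p of 0.00773 from edgeR.

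In the aged limbs SOX4 was at 3.38 CPM in replicate 1 and 1.93 CPM in replicate 2, both inside the range of the juvenile limbs. The log2 fold change of aged over juvenile limb was -0.32 (SE 0.53, adjusted p = 0.952, edgeR), and without aged limb replicate 2 it was 0.057. Blastema over aged limb gave 2.12 (SE 0.43). The lowest blastema was 2.36 times the higher aged limb. The adjusted p of 0.0515 from edgeR lay just above the threshold, whereas DESeq2 gave 0.00157. That p spanned 0.00123 to 0.257 over all alternatives run. The order of means was blastema, juvenile limb, aged limb, and both aged limbs lay inside the juvenile range.

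KDM3A was higher in the blastemas by the smallest factor of the members that passed the filter on low counts. Blastema replicates 2, 3, 5, 6 and 8 had 29.9, 32.0, 39.8, 28.6 and 26.4 CPM, and the juvenile limbs 9.38, 12.9, 19.0, 9.99 and 13.1 CPM. Replicate 5, low in SALL4 and SOX4, was here the highest of both groups. The lowest blastema was 1.39 times the highest juvenile limb. Blastemas averaged 31.3 ± 5.14 CPM and juvenile limbs 12.9 ± 3.83 CPM (SD, n = 5 each), with a log2 fold change of 1.28 (SE 0.22, adjusted p = 0.00319, edgeR).

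The aged limbs stood apart from each other in KDM3A, at 10.3 CPM in replicate 1 and 22.1 CPM in replicate 2. Replicate 1 lay inside the range of the juvenile limbs and replicate 2 above it. The log2 fold change of aged over juvenile limb was 0.35 (SE 0.36, adjusted p = 0.900, edgeR), and without aged limb replicate 2 it was -0.28. Blastema over aged limb gave 0.99 (SE 0.34, adjusted p = 0.236, edgeR), although the lowest blastema was still 1.19 times the higher aged limb. With aged limb replicate 1 left out it was 0.51, and with replicate 2 left out it was 1.62, so its size rested on which aged limb was compared.

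TBX4 had the fewest counts of the members, all of them in blastemas. It had 6, 6, 1, 13 and 2 counts in blastema replicates 2, 3, 5, 6 and 8, which are 0.587, 0.276, 0.0788, 0.984 and 0.149 CPM. No count fell on it in any of the 5 juvenile or the 2 aged limbs. A count of 0 allows up to 0.139 to 0.206 CPM in a juvenile limb and 0.133 and 0.193 CPM in the aged limbs (3 counts per library). The 95% exact Poisson intervals of blastemas 3, 5 and 8 reached into or below those limits, from 0.101 to 0.600 CPM, from 0.00199 to 0.439 CPM and from 0.0180 to 0.537 CPM. Those of blastemas 2 and 6 began at 0.215 and 0.524 CPM. By that same interval a count of 0 allows up to 0.170 to 0.254 CPM in a juvenile limb, which blastema 2 also reached into. With 3 counts set over each limb group, the pooled blastema counts were at least 11.5-fold higher than the juvenile limbs and at least 4.97-fold higher than the aged limbs. At the lower end of the counting interval these bounds were 7.67-fold and 3.31-fold. Blastema 6 held 13 of the 28 counts, and without it the bounds were 7.59-fold and 3.27-fold (4.25-fold and 1.83-fold at the lower end). Without aged limb replicate 1 or 2 the bound against the aged limbs was 2.03-fold or 2.94-fold.

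TBX4 was too low for edgeR's filter and was taken by itself on log2(CPM + 0.05). With every blastema above 0 and every limb at 0, an exact two-sided permutation test can return only the smallest p of its design. By exact permutation these were 0.00794 for the 5 blastemas against the 5 juvenile limbs, 0.0625 with libraries swapped only within a replicate number, and 0.0952 against the aged limbs. TBX4 was named on the first of these contrasts, and the p values add nothing to the counts. The mean difference on that scale was 2.82 in both comparisons, since all limbs were at 0. DESeq2, which tested TBX4 among all genes with a count, gave an adjusted p of 0.00879 against the juvenile limbs and 0.153 against the aged limbs. With the replicate number as a block, DESeq2 gave TBX4 a log2 fold change of 4.89 against the juvenile limbs, at an unadjusted p of 0.00984. That fit gave no adjusted p to TBX4, nor to 36918 of its 63474 genes in all, so TBX4 could not be called either way.

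All 3 members tested, SALL4, SOX4 and KDM3A, were called higher in blastemas than in juvenile limbs, where 7.45% of the 19961 genes tested were called, 1.86% as higher and 5.6% as lower. No overlap in this direction was seen in 3.32% of genes tested. Since the study named the members on this contrast, nothing is read from that count. Against the aged limbs, all 3 lay above without overlap, as did 9.74% of 22076 genes, and 0 of 3 were called, against 1.59% of genes called in either direction, with 0.439% higher and 1.15% lower in the blastema. At an unadjusted p under 0.05 there were 3 of 3 members and 3103 of the 22076 genes. DESeq2 called 2 of the 4 members and 1086 of the 50623 genes it was given. It gave no adjusted p to 24726 of those genes, which therefore could not be called. Between aged and juvenile limbs 0 of 3 were called by edgeR, 0 were under an unadjusted p of 0.05 and DESeq2 called 0. Among all 24316 genes 0.103% were called there, 0.0535% as higher and 0.0494% as lower in the aged limb. Both aged limbs lay above all juvenile limbs in 6.35% of genes and below them in 6.04%, and no member did either. The comparisons share libraries and are not separate observations.

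**Figure D2:**
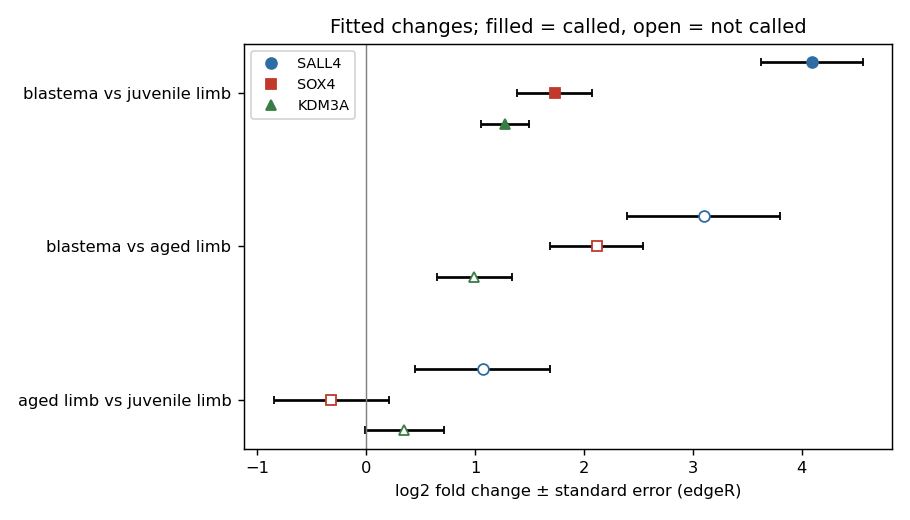
Log2 fold change ± SE from edgeR for SALL4, SOX4 and KDM3A (horizontal axis) in the 3 comparisons of groups (vertical axis), with filled symbols where the gene was called. The blastema lies above both kinds of limb for each gene, at 4.10, 1.73 and 1.28 against the juvenile limb, and the aged limb lies between -0.32 and 1.07 of the juvenile limb.

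The juvenile limbs and the blastemas carry the same replicate numbers, which are taken here to mark an animal, although no label says so. After removing group means, 3 of 5 blastemas correlated best with the limb of their own number. The ratios per number rest on that reading. SALL4 was 27.4, 16.6, 11.3, 15.9 and 13.7 times higher in the blastema than in the limb of numbers 2, 3, 5, 6 and 8, a mean log2 ratio of 4.02 ± 0.47 (SD, n = 5). Numbers 5 and 8 had the lowest SALL4 in both tissues. SOX4 was 3.83, 3.45, 5.79, 2.99 and 2.44 times higher, a mean log2 ratio of 1.83 ± 0.46 (SD, n = 5). The largest SOX4 ratio was that of number 5, whose limb had the lowest level. KDM3A was 3.19, 2.47, 2.09, 2.86 and 2.01 times higher, a mean log2 ratio of 1.31 ± 0.29 (SD, n = 5). The direction was the same in 5 of 5 pairs for the 3 genes. Because the groups did not overlap, any other pairing would give that direction too.

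**Figure D3:**
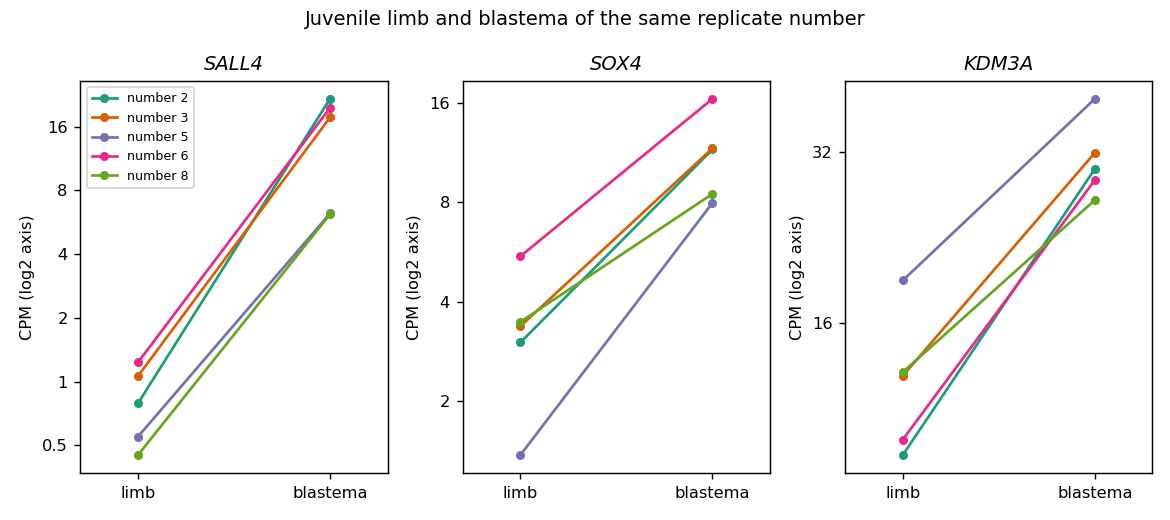
Levels of SALL4, SOX4 and KDM3A (CPM, log2 axes) in the juvenile limb and the blastema of each of the 5 replicate numbers, joined by a line per number. All 15 lines rise, with SALL4 ratios from 11.3 to 27.4, SOX4 ratios from 2.44 to 5.79 and KDM3A ratios from 2.01 to 3.19.

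The members did not vary alike within groups. Across the 5 blastemas, the highest library had 3.51 times the SALL4 of the lowest, 2.06 times the SOX4, 1.51 times the KDM3A and 12.5 times the TBX4. Blastemas 2, 3 and 6 were above blastemas 5 and 8 in SALL4, SOX4 and TBX4, and KDM3A did not follow that order. For TBX4 the order rests on 6, 6 and 13 counts against 1 and 2, with counting intervals that partly overlap. The biological coefficient of variation that edgeR estimated in the blastemas and juvenile limbs was 0.467 for SALL4, 0.382 for SOX4 and 0.282 for KDM3A, with a median of 0.409 over all genes tested.

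Marker genes of other cells also differed between the groups. In whole tissue, fewer cells of a type and less RNA per cell cannot be told apart. A list of 8 fibroblast and blastema mesenchyme genes, with TWIST1, LUM.1, KERA and KAZALD1.2 among them, summed to 1351, 420, 179, 626 and 342 CPM in blastemas 2, 3, 5, 6 and 8. Blastemas 2, 3 and 6 were again above 5 and 8. The juvenile limbs lay between 103 and 143 CPM, where replicate 5 was highest and the order of the blastemas was not kept. The aged limbs were at 70.2 and 110 CPM. These sums are weighted to the most highly expressed genes and need not follow each gene of the list. Of 7 tested between aged and juvenile limbs, 5 had a log2 fold change above 0 and 2 below, and 0 were called. Their median was 0.59 (all genes tested: -0.04). Of the 8 genes, 7 were called higher in blastemas than in juvenile limbs, at a median log2 fold change of 2.63 (all genes tested: -0.02), and 5 were called with the replicate number as a block. This list and the marker lists below were written with earlier results of these data known. Their counts of calls are therefore not independent evidence. The replication genes PCLAF and ORC6 summed to 37.8 to 59.0 CPM in the blastemas, with blastemas 5 and 8 lowest. The juvenile limbs had 9.31 to 34.2 CPM, with replicate 6, their highest in SALL4 and SOX4, lowest. The aged limbs had 40.0 CPM in replicate 1, above blastema 5, and 24.9 CPM in replicate 2. Neither gene was called in blastemas against juvenile limbs (adjusted p = 0.0743 and 0.0667, edgeR). Both had an unadjusted p under 0.05, and DESeq2 called both.

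Skeletal muscle markers went the other way. A list of 23 genes summed to 70.7 to 160 CPM in the blastemas and to 11947 to 51941 CPM in the juvenile limbs. Replicates 5 and 8 were highest in both groups. NEB and MYH2.4 were at 0 in every blastema, and of 22 muscle genes tested all 22 were called lower. The aged limbs held 26554 CPM in replicate 1 and 3316 CPM in replicate 2, and the library with less muscle signal was the library with more SALL4 and KDM3A and less SOX4. Keratin genes of the epidermis summed to 1871 to 4687 CPM in the blastemas and 5982 to 17265 CPM in the juvenile limbs, with 7 of 9 genes tested called lower. Of 12 immune genes, 11 were tested, 3 were called higher and 5 lower (1 and 5 with the replicate number as a block), and CPA3 was at 0 in every blastema. Of nerve sheath genes, 2 of 2 tested were called lower in the blastemas against either kind of limb. Bone genes summed to 1.19 to 5.15 CPM in the blastemas, 14.2 to 29.6 CPM in the juvenile limbs and 1.33 and 3.22 CPM in the aged limbs. Against the juvenile limbs 2 of 2 tested were called lower, and BGLAP and IFITM5.1 were at 0 in every blastema. The part of these cell mixtures in the levels of the members was not tested.

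**Figure D4:**
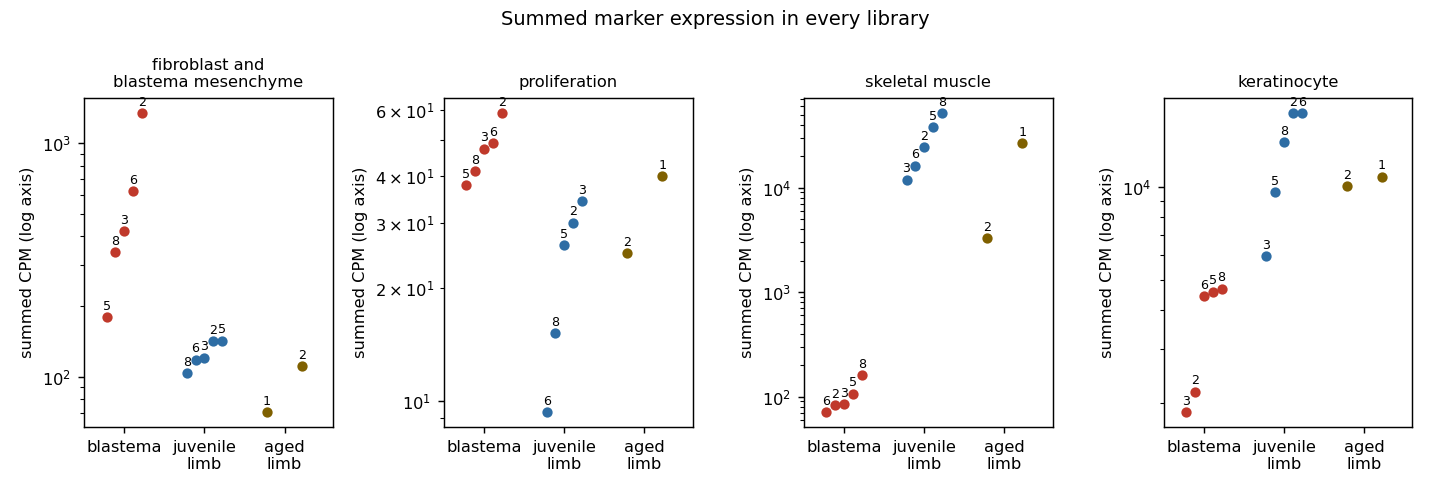
Summed CPM (log axes) of 4 marker lists in each library, with points numbered by replicate. The mesenchyme sum is 179 to 1351 CPM in the blastemas and 103 to 143 CPM in the juvenile limbs, and the muscle sum is 70.7 to 160 CPM in the blastemas and 3316 CPM or more in the 7 limbs.

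T-box genes were looked at because the sources differ on which limb was taken. The sample labels and the methods describe a hind limb and the results describe a forelimb, and in tetrapods TBX4 marks the hindlimb and TBX5 the forelimb. TBX4 had 0 counts in all 7 limbs, as given above. TBX5 (AMEX60DD001050) was counted in each of the 12 libraries, with 71, 93, 70, 77 and 141 counts in juvenile limbs 2, 3, 5, 6 and 8 and with 152 and 56 in aged limbs 1 and 2. In the blastemas of these numbers TBX5 had 142, 25, 7, 23 and 89 counts, a wide spread around that of the limbs. Its log2 fold change of -0.15 (SE 0.71, adjusted p = 0.922, edgeR) showed no difference beyond that spread. A further identifier named TBX5.1 had 47, 20, 2, 11 and 26 counts in these blastemas and 10, 23, 33, 17 and 28 in their limbs. Reads shared between the TBX5 identifiers would make them uncertain. Every blastema had counts of both TBX4 and TBX5, and which limb was taken was not tested.

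Among the other T-box genes named in the tables, TBX1, a regulator of head and heart muscle progenitors in mammals, fell in the blastemas by 1.91 on the log2 scale (SE 0.34, adjusted p = 0.00421, edgeR). Its 28 to 52 counts per blastema did not overlap the 142 to 227 counts per juvenile limb, and 7.24% of genes tested lay below without overlap. Both aged limbs, at 6.27 and 5.09 CPM, also lay below the lowest juvenile limb at 6.56 CPM, as did 6.04% of genes between the ages. TBX3, a limb patterning gene, was at -0.39 (SE 0.34, adjusted p = 0.525, edgeR). Of the 5 T-box identifiers 4 were tested by edgeR, 0 were called higher and 1 lower, and DESeq2 called TBX4 higher without the block. With the block DESeq2 gave TBX4 no adjusted p, so it could not be called. No T-box identifier was called in either comparison with the aged limbs by edgeR or DESeq2. Of the 4 tested by edgeR, 1 was under an unadjusted p of 0.05 between the ages and 0 against the blastema. TBX4, not among those 4, had an unadjusted p of 0.0110 in DESeq2 for blastema against aged limb. Of these 5, TBX4 alone had counts in the blastemas and none in the limbs.

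**Figure D5:**
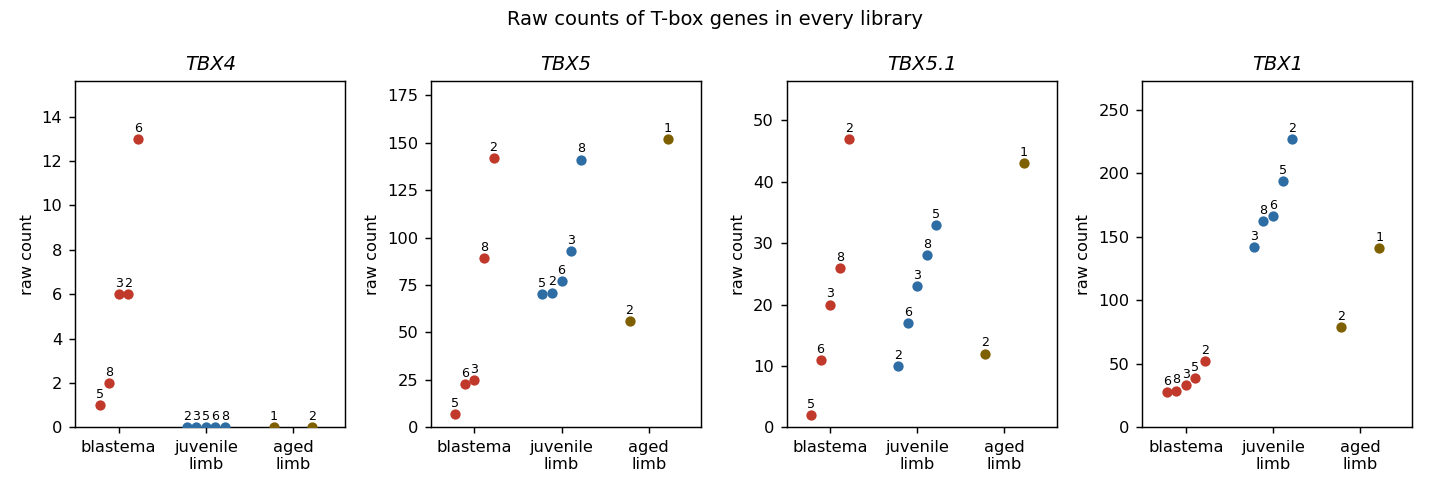
Raw counts of TBX4, TBX5, TBX5.1 and TBX1 in each library (linear axes from 0), with points numbered by replicate. TBX4 has 1 to 13 counts in the blastemas and 0 in the 7 limbs, whereas TBX5 has counts in each library and TBX1 is lower in the blastemas.

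The enzyme class of KDM3A, the 2-oxoglutarate oxygenases, was followed through 9 identifiers. Of 8 tested, 3 were called higher in blastemas than in juvenile limbs, 0 were called lower, and the median log2 fold change was 1.29 (all genes tested: -0.02). Beside KDM3A these were P4HA1 and P4HA1.1, which are named for the prolyl hydroxylase subunit of collagen assembly, at 1.39 (SE 0.25, adjusted p = 0.00391, edgeR) and 1.3 (SE 0.26, adjusted p = 0.00887). EGLN3, an oxygen-sensing prolyl hydroxylase, had 1.40 (SE 0.49, adjusted p = 0.102), and PLOD1, a collagen lysyl hydroxylase, had 1.32 (SE 0.39, adjusted p = 0.0573). All 5 of these came from the study's table of genes changed in these libraries. KDM2B, another histone demethylase, came from an excerpt of the annotation. That excerpt was taken from the study's table of coexpression modules, and its genes were not chosen by expression. Its log2 fold change was -0.01 (SE 0.16, adjusted p = 0.972, edgeR). From the same excerpt, ALKBH2 had -0.39 (SE 0.29, adjusted p = 0.446) and OGFOD2 had -0.68 (SE 0.40, adjusted p = 0.325). The class median thus rests on the 5 genes that the study had listed, all above 0, while the other 3 were below it. Against the aged limbs P4HA1 alone was called, at 1.92 (SE 0.34, adjusted p = 0.0315), and DESeq2 called 3 of the 9.

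Other chromatin regulators were followed in a pair of lists. Of 16 in the annotation excerpt, 13 were tested in the blastemas against the juvenile limbs, and 0 were called by edgeR or DESeq2. Of the 13, 3 had an unadjusted p under 0.05, and the median log2 fold change was 0.07. Among all 19961 genes tested by edgeR, 4802 had an unadjusted p under 0.05 and 7.45% were called, at a median of -0.02. SMARCB1, a subunit of the SWI/SNF remodelling complex, was nearest to a call at 0.89 (SE 0.15, adjusted p = 0.00351, edgeR), below the fold change threshold. Of 7 chromatin genes taken here from the study's table of genes changed in these libraries, 6 were tested. CECR2 at 1.42 and SAP30 at 1.02 were called higher, and SETD7.2 and KMT2C.2 were called lower at -1.15 and -1.24, while 3 were higher and 1 lower with the replicate number as a block. Bromodomain protein CECR2 was also called against the aged limbs, at 1.87 (SE 0.34, adjusted p = 0.033, edgeR). Between aged and juvenile limbs edgeR and DESeq2 called 0 genes of both lists, and 0 had an unadjusted p under 0.05.

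SALL4, SOX4 and TBX4 were set beside other transcription factors in the same way. Of 21 transcription factors in the annotation excerpt, which holds many zinc finger genes, 13 were tested, 0 were called higher and TBX1 was called lower, at a median log2 fold change of -0.34. A list of 24 limb and progenitor regulators gave a different picture. It was put together here from the study's table of genes changed in these libraries, so its calls are not independent evidence. Of 17 tested, 13 were called higher in the blastemas and 1, again TBX1, was called lower, at a median of 2.19. With the replicate number as a block 12 were higher and 1 lower, and DESeq2, which tested more of them, called 19 higher and 3 lower. MYCN, a growth-promoting transcription factor with few counts in the limbs, had a log2 fold change of 4.46 (SE 0.82). TRIM71, an RNA-binding regulator of developmental timing, had 3.12 (SE 0.53). The WNT effectors TCF7 and LEF1 had 2.82 (SE 0.44) and 2.17 (SE 0.56), and the limb bud factors MSX2 and TWIST1 had 2.66 (SE 0.30) and 2.19 (SE 0.57). The signals WNT5A and BMP2.2 had 2.45 and 2.42, the RNA-binding genes MEX3B, MEX3A and MSI1 had 1.93, 1.58 and 1.17, and ETV4 and ID3 had 1.82 and 1.05. Adjusted p values of the 13 from edgeR lay at or under 0.0491, that of MSI1.

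Against the aged limbs, where SALL4 and SOX4 missed the threshold, 9 of 22 genes of this list of limb and progenitor regulators were called higher. They were DLX6.1, which had 1 count in the aged limbs, TRIM71 at 4.59, MSX2 at 3.81, TCF7 at 3.60, WNT5A at 3.73, MEX3B at 3.45, BMP2.2 at 2.72, MEX3A at 2.49 and ETV4 at 2.32. The median over the 22 was 2.61 (all genes tested: 0.04), and of all 22076 genes tested 0.439% were called higher. As the list came from the study's table of genes changed in these libraries, its count of calls is not independent evidence. Between aged and juvenile limbs 0 of 20 were called by edgeR and by DESeq2, 5 had an unadjusted p under 0.05 (1818 of all 24316 genes did), and 16 of the 20 had a log2 fold change below 0, at a median of -0.62 (all genes tested: -0.04). SALL4, with 1.07 (SE 0.62, adjusted p = 0.763, edgeR), was on the other side of 0 and was not called.

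Genes with the most similar pattern over the 12 libraries were looked up among 25262 other genes kept by the filter. Of these, 1442 had a name in the parts of the paper's supplement used here (25263 and 1443 for TBX4, itself below the filter). Part of those names came from the study's table of genes changed in these libraries. Likeness was the root mean square difference of log2(CPM + 0.05), each gene centred on its own mean, where 0 means the same pattern. The points share their libraries and scaling, so these values are descriptions. The genes given are the closest ones named in those parts, and nearer genes without a name there were passed over. For SALL4 they were BAMBI, a decoy receptor of TGF-beta signals, at 0.82, PAMR1 at 0.83 and the matrix protein FN1 at 0.87, ranked 5, 6 and 9 among all genes. For SOX4 they were RNF125, a ubiquitin ligase, at 0.45, GPC6, a cell surface proteoglycan, at 0.50 and LOC105357518.55 at 0.51, ranked 4, 9 and 10. For KDM3A they were SAP30, a subunit of a histone deacetylase complex, at 0.32, VMP1.2 at 0.33 and PARPI_0011654 at 0.34, ranked 9, 12 and 14. For TBX4 FN1 was closest at 0.41 and was the nearest of all genes, named or not, ahead of CHST2 and TMEFF1 at 0.68, ranked 5 and 6. The low counts of TBX4 leave its pattern dependent on the offset, and none of its 3 neighbours was the same with an offset of 0.5.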

How the data were processed

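Raw counts per gene were used as deposited by the authors, without normalization. Per the methods and labels, ribosomal RNA was depleted with Ribo-Zero Gold, libraries were made with the SMARTer Stranded V2 kit, reads were trimmed with Trimmomatic 0.39, aligned to AmexG_v6.0-DD with STAR 2.7.9a and counted on AmexT_v47 with featureCounts. Strand and multiple-match settings are not given in the sources used here, so counts of overlapping genes or near-identical copies are uncertain. The joint table and the per-library files differed in 0 values. Names of neighbouring genes came from RefSeq (UKY_AmexF1_1).

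Each comparison was fitted on its own groups with edgeR 4.0.16 in R 4.3.3 (TMM, filterByExpr, quasi-likelihood F test, Benjamini-Hochberg adjustment). Calls needed a log2 fold change beyond 1 in either direction with an adjusted p below 0.05, as in the methods, which used DESeq2, run here as an alternative (version 1.42.0). SE is the log2 fold change divided by the square root of F. The fit was tested on simulated data. Results were also refitted with DESeq2's size factors in edgeR, totals without the 100 highest genes, no filter, a mean of at least 10 counts, all 12 libraries in the fit, the replicate number as a block, an offset of 0.5 and leaving out each library.

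Per the paper, limb tissue removed from juvenile animals was the control of their blastemas. That the shared numbers 2, 3, 5, 6 and 8 mark the animals is inferred from the sample titles. After removing group means, same-numbered libraries correlated at a median of 0.158 (0.030 to 0.204), against -0.021 for different numbers. Removing the means tends to push different-number values below 0 when same-number values are above it. These medians are therefore not independent of each other. The members, gene lists and tests were chosen with earlier results of these data known. The rule named the members, the T-box genes, list genes called in any comparison, and the 3 closest named genes of each member. Genes named without a call (EGLN3, PLOD1, KDM2B, ALKBH2, OGFOD2, SMARCB1, PCLAF, ORC6) and the markers at 0 were chosen after their values were seen. P-values measure the spread between these libraries.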

Additional observations from a re-analysis of the deposited data

How the results depend on the processing

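SALL4, SOX4 and KDM3A kept their calls against the juvenile limbs under all 18 alternatives, the replicate block with either tool included, with log2 fold changes of 3.94 to 4.29, 1.54 to 1.99 and 1.18 to 1.46. No alternative used plain library totals. TMM factors over the 12 libraries differed by group, at 0.763 to 1.05 in the blastemas and 1.01 to 1.19 in the juvenile limbs. Calls on unscaled totals, of KDM3A with its smallest change above all, were not tested. The block (4.03, 1.80 and 1.31 in edgeR) changed no call of these members. For TBX4, swapping libraries within replicate numbers gave a mean difference of 2.82 (0.78 with an offset of 0.5) at p = 0.0625, exact permutation and the smallest possible, so the pairing cannot give a call. DESeq2 with the replicate block gave TBX4 a log2 fold change of 4.89 and no adjusted p, so it could not be called. No paired analysis was possible because no aged animal gave a blastema or a juvenile limb, for both comparisons with the aged limb. Against the aged limbs, SALL4 was called by DESeq2 (3.08), without a filter (3.08) and in edgeR on all 12 libraries (3.06), and SOX4 likewise (2.08, 2.09 and 2.07). The causes were not tested. With a library left out, SALL4 had 2.62 to 3.68, SOX4 1.74 to 2.54 and KDM3A 0.51 to 1.62, none called. Between aged and juvenile limbs, leaving out libraries gave SOX4 -0.77 to 0.057 and KDM3A -0.28 to 0.80, with the sign of both turned without aged limb replicate 2 (0.057 and -0.28), and SALL4 0.48 to 1.51.

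The number of genes called in blastemas against juvenile limbs, 1488, became 2696 with DESeq2, 3000 with DESeq2 and the block, 3260 without a filter and 1394 with the block in edgeR. It was 1099 to 1800 with a library left out. Between the ages, 25 became 303 with DESeq2 and 897 without a filter, and 0 to 9 with a library left out, 0 without aged limb replicate 1, where 2476 genes had an unadjusted p under 0.05. Against the aged limbs, 351 became 1086 with DESeq2, 1867 without a filter and 1008 on all 12 libraries, and 73 to 549 with a library left out. With an offset of 0.5, 2 of the 3 closest genes of SALL4, 2 of SOX4, 3 of KDM3A and 0 of TBX4 were shared. Depth limits TBX4, whose 28 counts lay in the 5 blastemas.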
